A study of Mus musculus with 12 samples.

Results

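The data compare mouse embryonic stem cells that received a short hairpin RNA against Setdb1 with cells that received a scrambled hairpin, both grown in serum. Each group held 3 libraries, together 6 of the 12 libraries of the series, and libraries with the same replicate number were treated as a pair. The cells were E14, a line of 129/Ola background, kept on gelatin without feeders in serum medium with LIF. The hairpin came from a pLKO.1 lentivirus, infected cells were selected with puromycin, and both groups went through infection and selection. The other 6 libraries repeat the design in 2i, a medium that replaces serum with inhibitors of MEK and GSK3, and are used for the shared estimate of spread and to ask whether a change differed between the media. There was 1 hairpin against Setdb1 and no rescue, so effects of lower Setdb1 and other effects of the hairpin cannot be told apart. The labels do not call the replicates separate cultures, so the p-values reflect no more than the spread of these libraries, which may be technical. In these bulk samples fewer cells of a kind and less RNA per cell cannot be told apart.

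SETDB1 is a histone methyltransferase that places trimethylation on lysine 9 of histone H3. KRAB zinc finger proteins bring it to DNA through the corepressor TRIM28, and in embryonic stem cells it is best known for keeping endogenous retroviruses silent. It also takes part in the silencing of some germ cell genes. Another known repressor of such genes is PRC1.6, a variant polycomb complex whose MGA and E2F6 subunits bind E-box and E2F-type sequences.

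The promoters of the germ cell genes that rose are shown first, because these sequences bear on which repressors are known for such genes. Printed are the 250 bases before the first RefSeq start listed (build GRCm38.p6, 5′ to 3′ on the strand of the gene) for the 6 germ cell genes with the largest rises among those in the promoter table. Capitals mark CACGTG, an E-box that reads the same on both strands, and TTCCCGCC, an E2F-type motif that appears as GGCGGGAA where it lies on the other strand. The window of Stk31, a kinase of male germ cells, lies at chr6:49395289-49395538 on the plus strand. Those of the testis tubulins Tuba3a and Tuba3b lie at chr6:125286082-125286331 on the minus strand and at chr6:145615713-145615962 on the plus strand. The window of Hormad1, a protein of the meiotic chromosome axis, lies at chr3:95559427-95559676 on the plus strand. Taf7l, a germ cell form of a general transcription factor subunit, has its window at chrX:134476491-134476740 on the minus strand. That of Brdt, the testis bromodomain protein, lies at chr5:107330944-107331193 on the plus strand.
Stk31: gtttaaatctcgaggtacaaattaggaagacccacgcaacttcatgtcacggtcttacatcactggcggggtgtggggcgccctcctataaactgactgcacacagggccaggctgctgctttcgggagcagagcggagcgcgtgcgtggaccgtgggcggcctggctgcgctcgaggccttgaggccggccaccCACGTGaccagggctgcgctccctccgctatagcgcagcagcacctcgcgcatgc
Tuba3a: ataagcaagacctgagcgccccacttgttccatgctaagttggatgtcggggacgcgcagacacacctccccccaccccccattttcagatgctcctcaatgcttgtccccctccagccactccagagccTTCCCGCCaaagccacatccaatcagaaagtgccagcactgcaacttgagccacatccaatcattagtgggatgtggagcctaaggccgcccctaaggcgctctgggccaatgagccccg
Tuba3b: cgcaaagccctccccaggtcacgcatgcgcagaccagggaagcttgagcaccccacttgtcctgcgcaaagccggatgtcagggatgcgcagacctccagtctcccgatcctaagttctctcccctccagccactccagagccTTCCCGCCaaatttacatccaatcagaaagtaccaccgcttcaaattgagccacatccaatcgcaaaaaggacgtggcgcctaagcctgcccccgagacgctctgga
Hormad1: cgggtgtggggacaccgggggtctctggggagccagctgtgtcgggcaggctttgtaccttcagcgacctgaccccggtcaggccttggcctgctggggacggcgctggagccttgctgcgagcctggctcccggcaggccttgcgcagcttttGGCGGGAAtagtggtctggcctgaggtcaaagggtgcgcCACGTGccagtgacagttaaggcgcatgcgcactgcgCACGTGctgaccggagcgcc
Taf7l: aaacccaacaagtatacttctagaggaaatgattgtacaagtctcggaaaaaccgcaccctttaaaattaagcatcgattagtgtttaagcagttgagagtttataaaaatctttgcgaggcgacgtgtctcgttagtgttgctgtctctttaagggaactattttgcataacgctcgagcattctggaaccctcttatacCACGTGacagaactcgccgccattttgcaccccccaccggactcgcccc
Brdt: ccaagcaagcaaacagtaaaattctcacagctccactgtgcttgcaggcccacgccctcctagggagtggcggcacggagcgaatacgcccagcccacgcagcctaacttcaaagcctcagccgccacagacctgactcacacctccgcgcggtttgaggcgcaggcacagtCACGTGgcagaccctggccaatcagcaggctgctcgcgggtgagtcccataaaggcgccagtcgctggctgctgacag

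Stk31, Taf7l and Brdt hold 1 E-box each in these windows, Hormad1 holds 2 E-boxes and 1 E2F-type motif, and the tubulin promoters hold 1 E2F-type motif each and no E-box. Over the 57 tested genes of the germ cell lists, 50 had an entry in the promoter table with 66 windows, and 22 windows (33.3%) held CACGTG. That share was 11% of 127 windows for all genes that rose (107 of 177 matched), 3.45% of 29 for those that fell, 8.35% of 12427 for all tested genes and 6.02% of 32851 for the whole table. TTCCCGCC stood in 13.6% of the germ cell windows, 3.94% of those of rises and 3.38% of those of all tested genes, again counted on both strands. TTTCCCGC, a further E2F-type motif, stood in 6.06, 0.787 and 1.57% of these. The germ cell shares cover members that rose and members that did not pass. Of the 8 that rose 7 were matched, with 10 windows, of which 6 held CACGTG, 4 TTCCCGCC and 0 TTTCCCGC. Whether a motif goes with the rise was not tested. The median number of CG pairs was 14.5 in germ cell windows, 8 in those of rises and 15 in those of all tested genes. A match describes the letters and is not a bound site.

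The serum libraries held 9900012 to 15033758 gene reads and 5186701 to 8628544 repeat reads. Normalised reads are reads scaled by size factors, and a log2 change is a difference of the deposited variance-stabilised values, a scale that shrinks changes where reads are few. Tests covered 14487 of 26061 genes and 1097 of 1217 repeat families, and a feature passed at a limma adjusted p under 0.05 with the pairs as a block. All 10 embryonic stem cell markers checked had reads in every library, with summed levels of 58277 to 65916 normalised reads in the controls and 45824 to 60390 after knockdown. Of 10 fibroblast markers Col3a1, Postn, Dcn and S100a4 were at 0 in all 6 libraries, and the summed level was 48.8 to 219 in the controls and 76.8 to 107 after knockdown. Of 8 blood and macrophage markers Tyrobp, Lyz2 and Hbb-b1 were at 0 in all 6, and the summed level was 82.6 to 137 in the controls and 63.9 to 74.8 after knockdown. Structural RNA and tRNA took 24.2, 29.9 and 48.3% of repeat reads in control replicates 1 to 3 and 16.1, 15.6 and 42.6% in knockdown replicates 1 to 3. Each knockdown library thus held a smaller share than its own control, and pair 3 stood above the other pairs. The part of this difference in the results below was not tested.

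Setdb1 itself had 2959, 2237 and 1587 normalised reads in control libraries and 418, 379 and 409 in knockdown libraries. The groups did not overlap, and the knockdown mean was 5.62-fold lower (log2 change −2.33, SE 0.24, adjusted p = 8.41e-05, limma with the block). It was the 1 passing gene of 30 tested for SETDB1 cofactors and the H3K9 pathway. Trim28, the corepressor, had 22056, 15735 and 8832 normalised reads in control libraries and 21187, 10211 and 8095 in knockdown libraries, and Hells, a chromatin remodeller, had a log2 change of 0.27 (SE 0.24). Neither passed, and for both the groups overlapped. No gene of the PRC1.6 complex passed among 12 tested: Mga stood at −0.21 (SE 0.24) and Wdr5, which is shared with other complexes, at −0.60 (SE 0.25).

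Of the 14487 genes 211 passed (1.46%), 177 higher after knockdown (1.22%) and 34 lower (0.235%). Without the block 94 passed (0.649%), 87 higher (0.601%) and 7 lower (0.0483%), all of them among the 211. All passing genes moved the same way in the 3 pairs, which 32.8% of all tested genes did. The groups did not overlap for 170 of the 177 rises and 26 of the 34 falls, against 9.71% of all tested genes. In fits without 1 pair, 51 rises and 4 falls passed each time, and 63 rises and 18 falls passed in none.

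The share of rises depended on the control level. Genes with under 1 mean control read rose in 29 of 184 cases (15.8%), though such genes could enter the test only through libraries, of either medium, where they were read. From 1 to 10 control reads 2.69% of 1115 genes rose, from 10 to 100 reads 1.35% of 4445, from 100 to 1000 reads 0.802% of 6111, and at 1000 reads or more 0.342% of 2632. In all, 49 of the 177 rises had a serum control mean under the filter, so the same limit holds for some genes above 1 read. The shares at low control levels therefore depend in part on the filter. Falls ran the other way, from 4 genes at 10 to 100 control reads to 19 at 100 to 1000 and 11 at 1000 or more, where they outnumbered the 9 rises. The transformed gene values had a floor of 4.45, and the smallest passing fall was 1.07. Genes with few control reads lie close to that floor, so the lack of falls among them was largely set by the scale. The 58 rises with at least 100 control reads had a median fold of 3.21, with a range of 2.03 to 10.8. They are described first, since their folds rest on many reads in both groups.

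Among genes well read in the controls, Hltf, a helicase-like ubiquitin ligase that acts at stalled replication forks, had 2135, 2320 and 1247 normalised reads in control libraries and 10700, 10558 and 6805 in knockdown libraries. The lowest knockdown library stood above the highest control, and the rise was 4.92-fold (log2 change 2.29, SE 0.21, adjusted p = 2.94e-05). Epcam, the epithelial cell adhesion molecule, had 1198, 2369 and 819 normalised reads in control libraries and 4376, 7862 and 6126 in knockdown libraries, a 4.19-fold rise (log2 change 2.13, SE 0.25, adjusted p = 0.000316) in which pair 2 was high in both groups. Plod2, a lysyl hydroxylase of collagen, had 1333, 1518 and 974 normalised reads in control libraries and 6102, 6053 and 3543 in knockdown libraries, 4.1-fold higher (log2 change 1.98, SE 0.25, adjusted p = 0.000484). Usp26, an X-linked ubiquitin protease of the testis, had 174, 168 and 199.9 normalised reads in control libraries and 828, 1123 and 904 in knockdown libraries, 5.27-fold higher (log2 change 2.16, SE 0.29, adjusted p = 0.000868). Vwa5a, a von Willebrand factor A domain protein, had 379.9, 268 and 306 normalised reads in control libraries and 1923, 1506 and 1416 in knockdown libraries, 5.08-fold higher (log2 change 2.20, SE 0.24, adjusted p = 0.000155). Groups did not overlap for any of these genes.

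Acot1, a cytosolic acyl-CoA thioesterase, had 81.4, 161 and 229 normalised reads in control libraries and 1422, 1840 and 1738 in knockdown libraries, 10.6-fold higher (log2 change 3.18, SE 0.25, adjusted p = 5.12e-06). Its neighbour Acot2, the mitochondrial form, had 94.4, 84.4 and 138 normalised reads in control libraries and 463, 482 and 586 in knockdown libraries, 4.83-fold higher (log2 change 1.93, SE 0.30, adjusted p = 0.00334). The groups did not overlap for either, and these near copies may share reads. Of the other 9 thioesterase genes tested none passed, with Acot9 at −0.09 (SE 0.30) and Acot10 at −0.05 (SE 0.33). Idi1, an isomerase of the cholesterol pathway, had 765, 821 and 819 normalised reads in control libraries and 2702, 2420 and 3569 in knockdown libraries, 3.61-fold higher (log2 change 1.78, SE 0.22, adjusted p = 0.000504). It was the 1 passing gene of 22 tested for cholesterol synthesis, whose median change of 0.07 changed sign between settings. Phyh, a peroxisomal enzyme that breaks down phytanic acid, rose 4.17-fold (log2 change 1.99, SE 0.23, adjusted p = 0.000293) and Aass, an enzyme of lysine breakdown, 4.05-fold (log2 change 1.91, SE 0.32, adjusted p = 0.00579). The adjusted p was 0.05 or above without the block for Aass (0.0874), without pair 1 for Acot2 (0.0663) and Aass (0.142), without pair 2 for Acot2 (0.0656), and without pair 3 for Aass (0.0725).

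Pair 3 stood apart for a pair of genes of innate immunity. Samd9l, an interferon-responsive gene, had 377, 402 and 3.21 normalised reads in control libraries and 1787, 771 and 261 in knockdown libraries. Nlrc4, an inflammasome component, had 169, 195 and 2.14 normalised reads in control libraries and 1014, 341 and 216 in knockdown libraries. Control 3 was far below the other controls in both, and the Samd9l groups overlapped. They passed (2.08, SE 0.35, adjusted p = 0.00593 for Samd9l and 2.04, SE 0.38, adjusted p = 0.0111 for Nlrc4), but none of the 27 interferon response and RNA sensing genes tested did, and their median was 0.10. That list holds neither gene, nor Gbp9, which was read less in the controls and also rose (1.82, SE 0.32, limma adjusted p = 0.00837, 0.0907 without the block). The other large rises with at least 100 control reads were BC067074 (2.34), 1700029P11Rik (2.24), Gm13227 (1.96) and BC016423 (1.86). For these genes the call did not hold without the block for Samd9l, Nlrc4 and BC016423 (0.255 to 0.834), without pair 1 for Samd9l, Nlrc4, BC016423, BC067074 and 1700029P11Rik (0.0801 to 0.2), without pair 2 for BC067074 (0.129), and without pair 3 for Samd9l, Nlrc4 and BC016423 (0.0643 to 0.148). Other settings that ended a call were voom on the recovered reads, 1 block for both media, the serum libraries alone and no filter on low values, for 1 or more of Samd9l and Nlrc4.

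**Figure D1:**
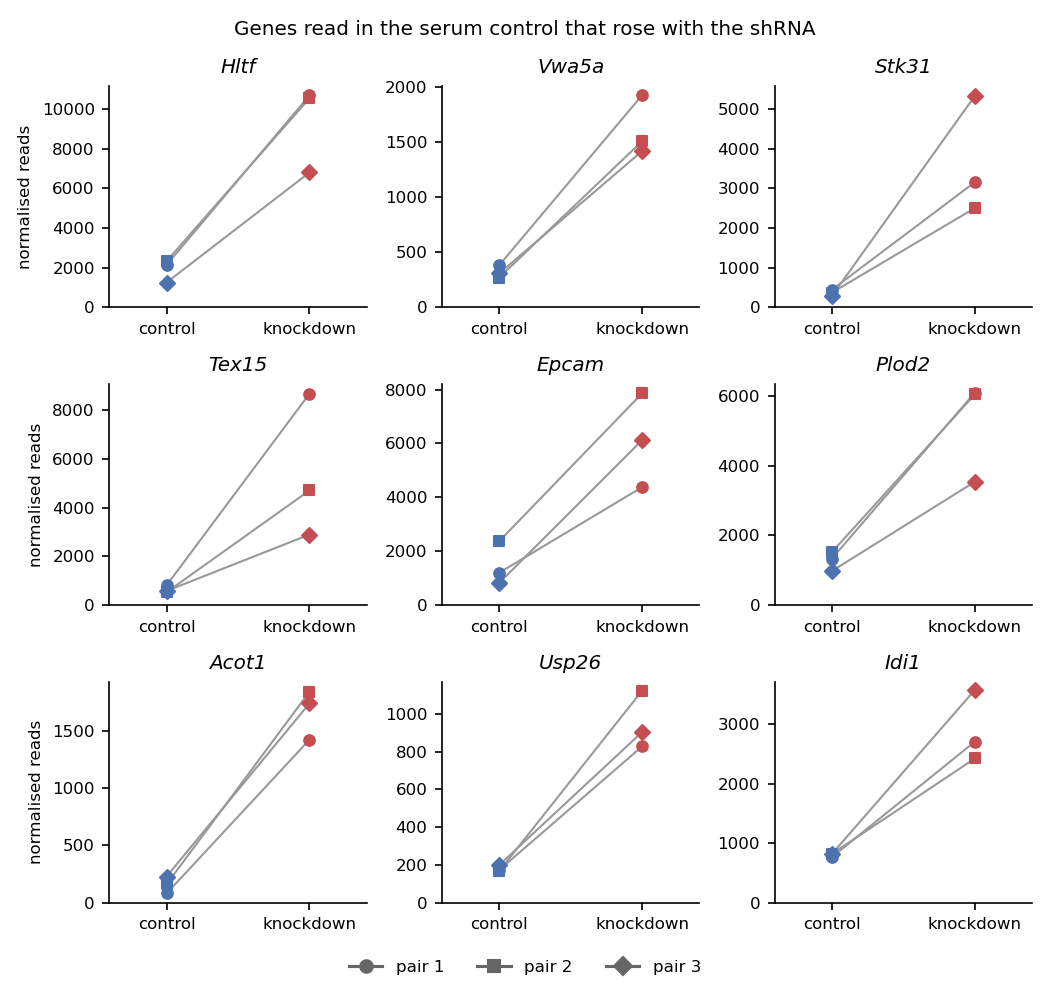
Normalised reads (vertical axis, from 0) of 9 genes that rose, in control and knockdown libraries in serum; lines join the libraries of a pair and the marker shape gives the pair. Every line slopes upward and no knockdown library lies at or below a control, with the smallest fold, 3.61, for Idi1.

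The rises ranked 11 to 30 by log2 change included the following genes. Enpp3, an ectonucleotide pyrophosphatase, had 401, 388 and 17.1 normalised reads in control libraries and 5006, 2278 and 1449 in knockdown libraries, 10.8-fold higher (log2 change 3.60, SE 0.38, adjusted p = 0.000117), with control 3 lowest by far. Colec12, a scavenger receptor with a collagen-like stem, had 125, 100.4 and 65.2 normalised reads in control libraries and 1203, 1121 and 643 in knockdown libraries, 10.2-fold higher (log2 change 2.89, SE 0.26, adjusted p = 2.8e-05). Cd59a, an inhibitor of the complement pore, had 56.4, 82.6 and 126 normalised reads in control libraries and 585, 865 and 1302 in knockdown libraries, 10.4-fold higher (log2 change 2.87, SE 0.29, adjusted p = 6.87e-05). Control and knockdown libraries did not overlap for these 3 genes. Serpinb9, an inhibitor of granzyme B, had 2.17, 16 and 8.55 normalised reads in control libraries and 195, 187 and 299 in knockdown libraries, 25.5-fold higher. The meprin Mep1b had 51, 100.4 and 19.2 normalised reads in control libraries and 1095, 926 and 1535 in knockdown libraries, and Gm16685 had 11.9, 0 and 0 normalised reads in control libraries and 571, 366 and 296 in knockdown libraries. In all of them the knockdown libraries lay far above the controls. Some had no control read. Pde6a, the rod phosphodiesterase, had 153, 291 and 94.9 normalised reads after knockdown, at least 179-fold higher against 3 reads over the group. The lectin-like Clec2g was at least 140.4-fold and the retinol dehydrogenase Rdh16 at least 109.9-fold higher by the same floor. Dcdc2a, a doublecortin domain protein with 1 control read, had 221, 201 and 164 after knockdown. BC051019 rose by 2.67 and Asb13, a SOCS box protein, by 2.87 on the log2 scale. The call was lost without pair 1 for Asb13 (0.0683) and Rdh16 (0.0714).

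The counts of rises in the next gene families stand against 1.22% of all tested genes, and most rest on few members. These lists were chosen with earlier results of these data known, so their shares describe the lists and test nothing. Of 16 serine protease inhibitors tested 5 rose, namely Serpina3k (2.97), Serpina3m (5.201), Serpina3n (1.56), Serpinb6b (2.53) and Serpinb9 (2.75), and the list median was 0.54. The list does not hold Serpinb6c, which fell and is given with the falls below. The metalloprotease list, which also holds meprins and ADAM genes, had 3 of 16 higher, Mmp12 (5.03), Mep1b (3.77) and Mmp1b (3.46), with a median of 0.33. Of the aldo-keto reductase list 3 of 13 rose, Akr1c21 (3.87), Akr1c13 (2.50) and Asb13, so 2 are aldo-keto reductases and the third belongs to another family. Akr1c13, a hydroxysteroid dehydrogenase, had 9.77, 28.4 and 0 normalised reads in control libraries and 163, 248 and 141 in knockdown libraries, with no overlap. Cytochrome P450 genes had 2 of 19 higher, Cyp2b23 (4.95) and Cyp2c55 (2.34). C-type lectin-like genes had 2 of 6 higher, Clec2i (5.83) and Clec2g (3.04), with 6 of 22 genes tested. Clec2i, Clec2g, Mmp12, Mmp1b and Serpina3n had no read in the serum controls. They could enter the test only through libraries where they were read, so the shares of their lists depend in part on the filter. These families hold near-identical copies, between which reads may be split. Extracellular matrix genes had 1 higher, Cthrc1 (4.40), and 1 lower, Nid1, of 22. Of the genes of these families not given before, the call was lost without the block for Serpina3n, Serpinb6b and Cyp2c55 (0.0921 to 0.321), without pair 1 for Serpina3n, Akr1c13 and Cyp2c55 (0.0966 to 0.313), without pair 2 for Serpina3n, Akr1c13 and Cyp2c55 (0.0754 to 0.171), and without pair 3 for Serpina3n, Akr1c13 and Cyp2c55 (0.108 to 0.278). Serpina3n, Akr1c13 and Cyp2c55 also lost the call with no filter on low values, voom on the recovered reads, 1 block for both media or no mean-variance trend, in 1 or more of these fits each.

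Apart from Tuba3b, the germ cell genes that rose were already read in every control library, some of them at low levels. The piRNA and meiosis lists were also chosen with earlier results of these data known, so the shares below are descriptive. Of 57 tested genes of these lists 8 rose (14%, against 1.22% of all genes) and none fell. Their median was 0.66, with 44 of 57 above 0, against −0.0015 and 49.7% for all tested genes. In all 3 pairs 34 of the 57 were higher, against 17.1% of all tested genes. With no overlap between the groups 19 were higher, against 9.71% of all tested genes without overlap in either direction. Tex15, a protein of meiosis and of transposon silencing in male germ cells, had 808, 524 and 576 normalised reads in control libraries and 8682, 4709 and 2896 in knockdown libraries (2.89, SE 0.33, adjusted p = 0.000263). Stk31 had 441, 368 and 281 normalised reads in control libraries and 3157, 2504 and 5335 in knockdown libraries (3.14, SE 0.28, adjusted p = 2.51e-05). Hormad1 had 246, 623 and 333 normalised reads in control libraries and 1031, 1457 and 1927 in knockdown libraries (1.82, SE 0.25, adjusted p = 0.0013). These 3 genes did not overlap between the groups, and pair 3 was lowest after knockdown for Tex15 and highest for Stk31 and Hormad1. Tdrd12, a Tudor protein of the piRNA pathway, had 372, 729 and 213 normalised reads in control libraries and 834, 1631 and 1104 in knockdown libraries (1.46, SE 0.30, adjusted p = 0.0238). Taf7l had 72.7, 171 and 221 normalised reads in control libraries and 385, 518 and 592 in knockdown libraries (1.53, SE 0.30, adjusted p = 0.018). Brdt had 8.68, 16.9 and 41.7 normalised reads in control libraries and 37.3, 163 and 194 in knockdown libraries (1.48, SE 0.32, adjusted p = 0.0341), and its groups overlapped. The tubulins were lower in level: Tuba3a had 32.6, 42.6 and 199 normalised reads in control libraries and 240.4, 1049 and 464 in knockdown libraries (2.29, SE 0.47, adjusted p = 0.025) and Tuba3b 0, 3.55 and 25.7 in control libraries and 41.1, 152 and 122 in knockdown libraries (1.94, SE 0.32, adjusted p = 0.0058), and such near copies may share reads. Apart from Brdt, the groups did not overlap for any of the 8 genes. Among members that did not pass, Rnf17 stood at 0.65 (SE 0.27), Tex19.1 at 0.39 (SE 0.30), Sycp3 at 0.79 (SE 0.31) and Hsf2bp at −0.04 (SE 0.27). The adjusted p was 0.05 or above without the block for Tdrd12, Tuba3a, Tuba3b, Hormad1, Taf7l and Brdt (0.252 to 0.601), without pair 1 for Tdrd12, Tuba3a, Tuba3b, Taf7l and Brdt (0.0744 to 0.328), without pair 2 for Tdrd12, Tuba3a, Tuba3b, Taf7l and Brdt (0.11 to 0.4), and without pair 3 for Tdrd12, Taf7l and Brdt (0.0725 to 0.25). For Tdrd12, Tuba3a, Taf7l and Brdt, at least 1 fit with 1 block for both media, no filter on low values, no mean-variance trend or the serum libraries alone also ended the call.

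Dppa3, a maternal factor read in germ cells and in naive stem cells, had 42.3, 163 and 93 normalised reads in control libraries and 405, 1850 and 1755 in knockdown libraries. No knockdown library fell below a control, pair 1 was lowest in both groups, and the rise was 13.4-fold (log2 change 3.15, SE 0.33, adjusted p = 0.000117). It was the 1 passing gene of 8 primordial germ cell markers, whose summed level was 1211 to 2699 normalised reads in the controls and 1323 to 3885 after knockdown. Of 9 Y chromosome genes 2 rose, the testis RNA-binding gene Rbmy1a1 (5.47) and Ube1y1, a ubiquitin-activating enzyme, with 19.5, 42.6 and 26.7 normalised reads in control libraries and 183, 295 and 299 in knockdown libraries (2.18, SE 0.27, adjusted p = 0.000419). All 9 lay above 0, with Ddx3y at 0.17 (SE 0.28) and Eif2s3y at 0.16 (SE 0.24). Rbmy copies are near-identical, so their reads cannot be placed on 1 copy. No gene passed among 21 of the 2-cell stage (median 0.11, negative in 1 other setting) or 8 of the Rhox cluster. Of the passing genes the call did not hold without the block for Dppa3 (0.194).

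**Figure D2:**
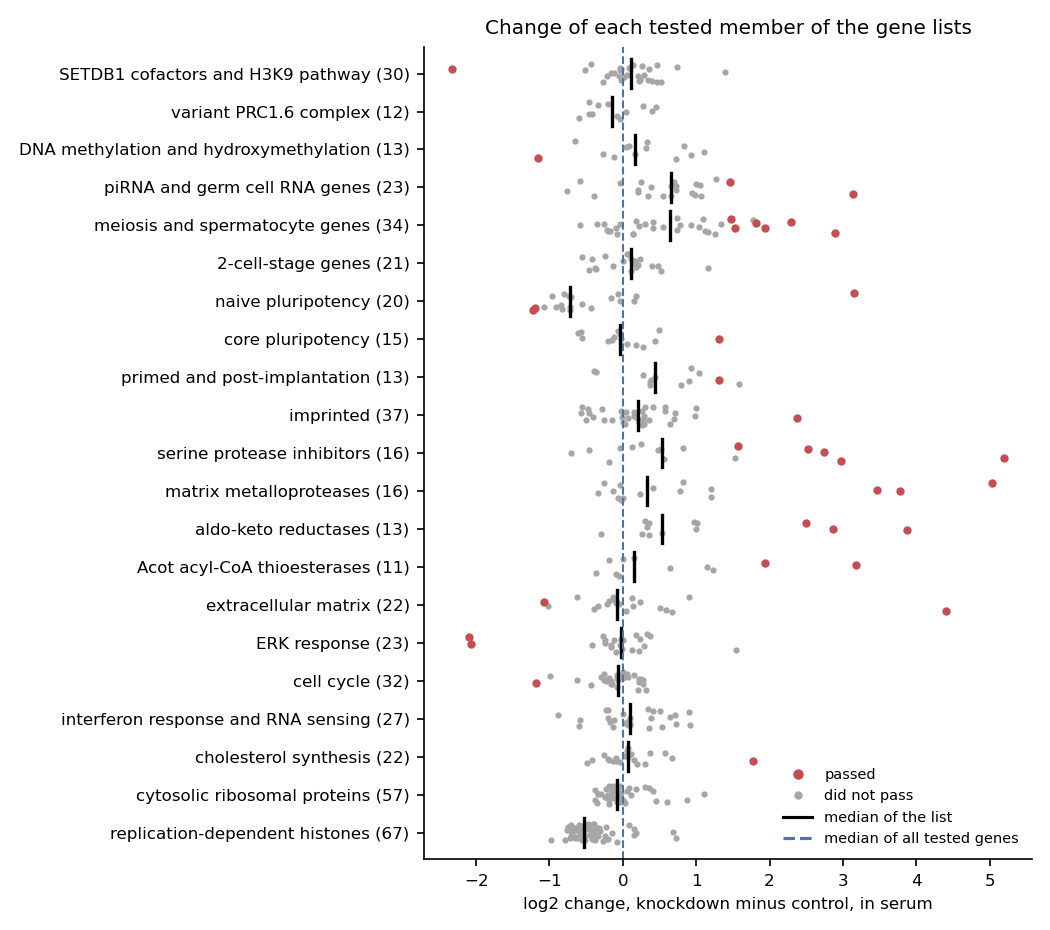
Log2 change in serum (horizontal axis) of each tested member of 21 gene lists, with the number tested in brackets; red points passed, grey points did not, black bars are list medians and the dashed line is the median of all tested genes. The piRNA and meiosis lists sit to the right at medians of 0.66 and 0.64, and the naive pluripotency and histone lists to the left at −0.72 and −0.53.

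Rises lay beside other rises. Of the 145 rises placed in the RefSeq gene order of GRCm38.p6, 39 (26.9%) had another rise as a neighbouring tested gene, in 22 neighbouring pairs, against 1.89% of 12363 other tested genes. Some pairs are members of 1 family, such as Acot1 and Acot2, Serpina3k, Serpina3m and Serpina3n, Clec2i and Clec2g, or Mmp12 and Mmp1b. The pairs given here were chosen after their values were seen. Cd59b, a near copy of its neighbour Cd59a with which it may share reads, had 25, 24.9 and 21.4 normalised reads in control libraries and 155, 155 and 237 in knockdown libraries (1.89, SE 0.29, adjusted p = 0.00334). Other pairs join genes of different families. Hps3, a trafficking gene next to Hltf, had 292, 362 and 94.1 normalised reads in control libraries and 692, 788 and 911 in knockdown libraries (1.67, SE 0.32, adjusted p = 0.0167). Ccdc126, next to Stk31, had 109.6, 150.1 and 127 normalised reads in control libraries and 444, 512 and 399 in knockdown libraries (1.54, SE 0.28, adjusted p = 0.00941). Whether reads were counted by strand is not given in the sources used here, so reads that run from 1 gene into the next cannot be told apart from reads of both. The groups did not overlap for any of the 3 neighbours. Of these neighbours the call did not hold without the block for Hps3 (0.0521), without pair 1 for Hps3 (0.0714) and Ccdc126 (0.186), without pair 2 for Ccdc126 (0.112), and without pair 3 for Cd59b, Hps3 and Ccdc126 (0.0535 to 0.19). Hps3 also lost the call with the serum libraries alone or no filter on low values.

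The falls were fewer and began from higher levels, with a median of 455.9 control reads against 29.6 for the rises. This contrast depends in part on the floor of the scale, which leaves genes with few control reads little room to fall. By log2 change of the transformed values, which understates the change of genes with few reads, Dpys, an enzyme of pyrimidine breakdown, followed Setdb1, with 285, 252 and 530.3 normalised reads in control libraries and 19.8, 71.6 and 73.8 in knockdown libraries, 6.47-fold lower (log2 change −2.11, SE 0.33, adjusted p = 0.00334). Emp1, an epithelial membrane protein, had 1227, 796 and 836 normalised reads in control libraries and 243, 119 and 221 in knockdown libraries, 4.9-fold lower (log2 change −2.10, SE 0.25, adjusted p = 0.000357). Mras, a Ras-related GTPase, had 841, 768 and 612 normalised reads in control libraries and 235, 79.2 and 152 in knockdown libraries, 4.76-fold lower (log2 change −2.07, SE 0.27, adjusted p = 0.00069). For all 3 every knockdown library was below every control. Dnajc6, the clathrin uncoating factor auxilin, had 484, 279 and 563 normalised reads in control libraries and 160.5, 68.2 and 142 in knockdown libraries, 3.58-fold lower (log2 change −1.56, SE 0.23, adjusted p = 0.00238). Tmem64, a membrane protein, had 1880, 1264 and 953 normalised reads in control libraries and 491, 272 and 465 in knockdown libraries, 3.34-fold lower (log2 change −1.63, SE 0.24, adjusted p = 0.00261). These groups did not overlap either. Inhbb, a subunit of activin and inhibin, had 442, 291 and 676 normalised reads in control libraries and 45.6, 70.7 and 236 in knockdown libraries (−1.83, SE 0.33, adjusted p = 0.00884). The growth factor Pdgfc had 344, 234 and 159 normalised reads in control libraries and 110.3, 44.6 and 27.8 in knockdown libraries (−1.58, SE 0.25, adjusted p = 0.0039), and Tek, an angiopoietin receptor, had 316, 447 and 457 normalised reads in control libraries and 82.9, 209.7 and 104 in knockdown libraries (−1.43, SE 0.27, adjusted p = 0.0134). Knockdown libraries lay below the controls in each. Further falls were Spink3, a trypsin inhibitor (−1.93), Serpinb6c (−1.68), the galectin Lgals3 (−1.64), Kbtbd11 (−1.63), Lonrf2 (−1.57), Lrrc34 (−1.55), Dpysl3 (−1.46), the endocytic receptor Ly75 (−1.45), Gm216 (−1.44), the class I-like H2-M5 (−1.40) and the transglutaminase Tgm3 (−1.38), all on the log2 scale. Some of these were read little and had larger folds than Dpys: Lonrf2 had 118, 30.2 and 10.7 normalised reads in control libraries and 2.28, 0 and 0.959 in knockdown libraries, Spink3 185, 228 and 11.8 in control libraries and 24.3, 6.74 and 0 in knockdown libraries (13.7-fold lower) and Gm216 77.1, 36.4 and 54.5 in control libraries and 7.61, 5.05 and 1.92 in knockdown libraries (11.5-fold lower). Groups overlapped for Spink3, Lgals3, Dpysl3, Ly75 and Tgm3. Emp1, Mras and Dnajc6 passed without the block and without each pair in turn, while Dpys and Tmem64 passed without the block. The other 14 did not pass without it, with adjusted p from 0.051 (Pdgfc) to 0.877 (Dpysl3). Calls were lost without pair 1 for Dpys, Spink3, Inhbb, Serpinb6c, Lgals3, Kbtbd11, Tmem64, Pdgfc, Lonrf2, Lrrc34, Dpysl3, Ly75, Gm216, Tek, H2-M5 and Tgm3 (0.0543 to 0.462), without pair 2 for Spink3, Inhbb, Serpinb6c, Lgals3, Kbtbd11, Tmem64, Pdgfc, Lonrf2, Lrrc34, Dpysl3, Gm216, H2-M5 and Tgm3 (0.0656 to 0.264), and without pair 3 for Serpinb6c, Lgals3, Kbtbd11, Dpysl3, Ly75, Gm216, Tek, H2-M5 and Tgm3 (0.0535 to 0.279). Spink3, Serpinb6c, Lgals3, Lonrf2, Dpysl3, Ly75, Gm216 and Tgm3 lost the call in 1 or more further fits, with 1 block for both media, no filter on low values, voom on the recovered reads, the serum libraries alone.

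Tet2, which oxidises methylated cytosine, had 5797, 3512 and 3788 normalised reads in control libraries and 2434, 2239 and 1212 in knockdown libraries (−1.16, SE 0.24, adjusted p = 0.0287). Tbx3, a transcription factor of naive stem cells, had 1219, 648 and 1856 normalised reads in control libraries and 530.1, 344 and 571 in knockdown libraries (−1.20, SE 0.26, adjusted p = 0.0326). Nr0b1, an orphan nuclear receptor, had 2556, 1696 and 755 normalised reads in control libraries and 1148, 359.6 and 544 in knockdown libraries (−1.23, SE 0.28, adjusted p = 0.0473). Of these 3 genes the groups overlapped for Nr0b1. Of 20 naive pluripotency genes tested Tbx3 and Nr0b1 fell and Dppa3 rose. The list median was −0.72, with 17 below 0 and 13 lower in all 3 pairs, against 15.7% of all tested genes. Zfp42, a naive marker, had 11933, 13222 and 8954 normalised reads in control libraries and 6398, 6028 and 7930 in knockdown libraries and did not pass (−0.73, SE 0.27, adjusted p = 0.33), and Dppa5a stood at −0.16 (SE 0.34). Of 15 core pluripotency genes Otx2, a factor of the exit from the naive state that also stands in the primed list, rose with 432, 609 and 70.6 normalised reads in control libraries and 1171, 1049 and 348 in knockdown libraries (1.31, SE 0.28, adjusted p = 0.0288). Its groups overlapped and control 3 was lowest. Pou5f1 had 13086, 15172 and 12078 normalised reads in control libraries and 11576, 10190 and 13336 in knockdown libraries (−0.20) and Tdgf1 stood at −0.07 (SE 0.34). Dnmt3b, a de novo DNA methyltransferase of the primed list, had 3818, 3836 and 866 normalised reads in control libraries and 9277, 7139 and 1378 in knockdown libraries and did not pass (0.93, SE 0.33, adjusted p = 0.289). The 13 primed and post-implantation genes had a median of 0.44. Ccnd1, cyclin D1, fell with 1859, 1688 and 483 normalised reads in control libraries and 779.6, 425 and 340.4 in knockdown libraries (−1.19, SE 0.26, adjusted p = 0.0345), and Nid1, a basement membrane protein, with 1588, 994 and 2169 normalised reads in control libraries and 810.0, 478 and 868 in knockdown libraries (−1.07, SE 0.21, adjusted p = 0.0204). The call was not kept without the block for Tet2, Tbx3, Nr0b1, Ccnd1, Nid1 and Otx2 (0.255 to 1), without pair 1 for Tet2, Tbx3, Nr0b1, Ccnd1, Nid1 and Otx2 (0.224 to 0.362), without pair 2 for Tet2, Tbx3, Nr0b1, Ccnd1, Nid1 and Otx2 (0.0588 to 0.54), and without pair 3 for Tet2, Tbx3, Nid1 and Otx2 (0.193 to 0.285). Tet2, Tbx3, Nr0b1, Ccnd1, Nid1 and Otx2 also lost the call with no filter on low values, no mean-variance trend, 1 block for both media, the serum libraries alone or the strict filter, in 1 or more of these fits each.

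**Figure D3:**
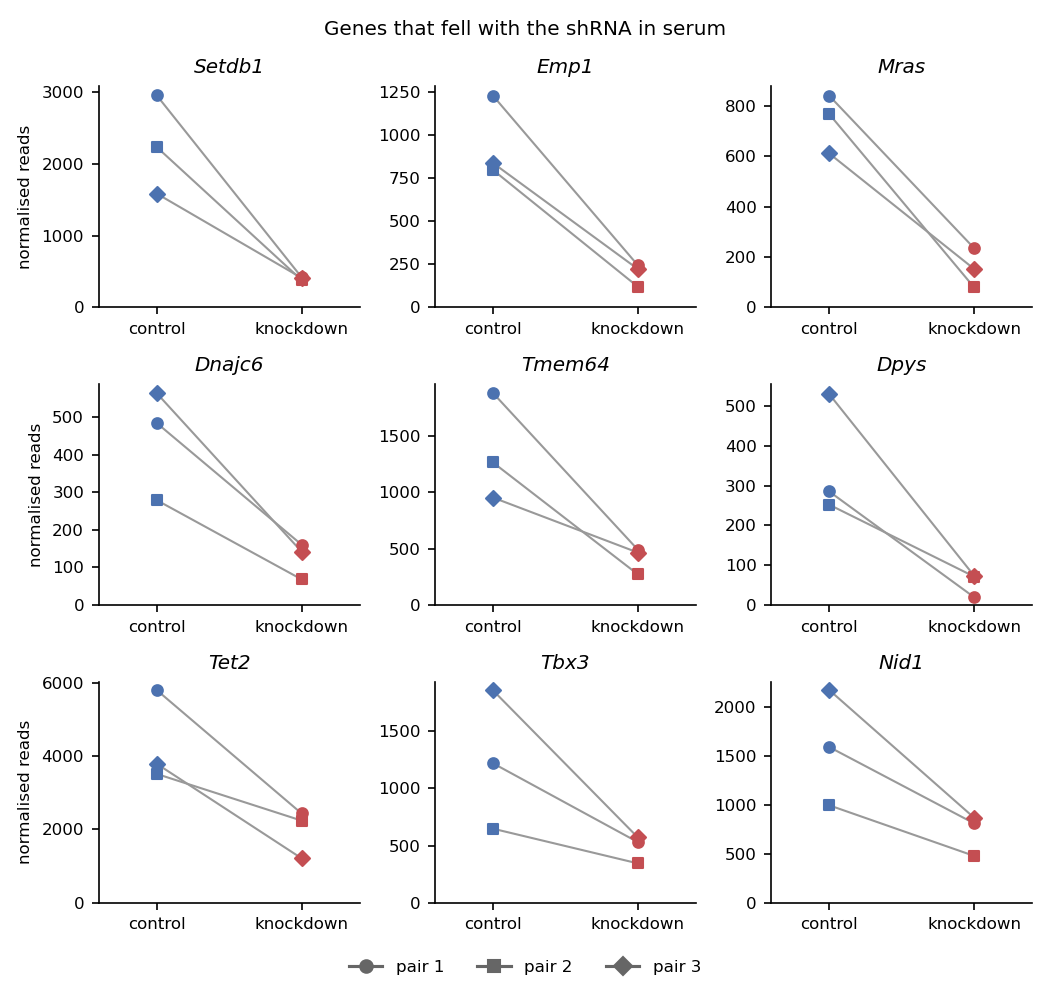
Normalised reads (vertical axis, from 0) of Setdb1 and 8 other genes that fell, in control and knockdown libraries in serum; lines join the libraries of a pair. Every line slopes downward; the mean was 6.47-fold lower for Dpys, the largest fold shown, and 2.20-fold for Nid1, the smallest.

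Most other lists held no or few passing genes. In the ERK response list Emp1 and Mras fell among 23, while Etv5 (−0.24) and Spred1 (−0.02) did not pass and the median was −0.03, with a sign that changed between settings. No gene passed among 22 p53 targets, 25 stress and unfolded protein genes, 22 glycolysis genes, 57 cytosolic ribosomal proteins, 11 trophoblast, 12 primitive endoderm, 8 mesoderm or 8 neural genes. Of 13 DNA methylation genes Tet2 fell, with Tet1 at −0.65 (SE 0.38) and Dnmt1 at 0.09 (SE 0.27). Of 37 imprinted genes 1 rose, Usp29, a ubiquitin protease (2.38, SE 0.27, adjusted p = 0.000241). The zinc finger and solute carrier lists held no larger share of rises than the 1.22% of all tested genes. Of 320 Zfp zinc finger genes 2 rose, Zfp37 with 229, 338 and 288 normalised reads in control libraries and 676, 747 and 656 in knockdown libraries (1.18, SE 0.24, adjusted p = 0.0229) and Zfp52 (1.29, with overlapping groups). Of 276 solute carriers and channels Slc41a2 (1.82) and Slc39a8 (2.55) rose and the citrate transporter Slc13a5 (−1.34) fell. That list is incomplete, so its share covers listed genes only. Rises outside it were the solute carrier Slc5a4b (1.34) and the channel genes Cnga3 (1.90), Gria4 (1.89) and Gabrr1 (1.66). Of these, only Cnga3 passed without each pair in turn, and Slc5a4b and Gria4 did not pass without the block (0.157 and 0.0939). Olfactory and vomeronasal receptors, a list of which 8 of 1406 were tested, held 2 rises, Olfr503 (1.43) and Olfr901 (2.26), the latter next to Vwa5a. Replication-dependent histone genes had 0 of 67 passing, a median of −0.53, 61 below 0 and 58 lower in all 3 pairs. Of all tested genes 15.7% were lower in all 3 pairs. Their transcripts lack a poly(A) tail. The share of structural RNA was also lower in each knockdown library than in its own control, and a link between them was not tested. Calls did not hold without the block for Zfp52, Slc13a5 and Olfr503 (0.127 to 0.479), without pair 1 for Zfp37, Zfp52, Slc39a8, Slc13a5 and Olfr503 (0.109 to 0.601), without pair 2 for Zfp37, Zfp52, Slc41a2, Slc13a5 and Olfr503 (0.102 to 0.31), and without pair 3 for Zfp37, Zfp52, Slc39a8, Slc13a5 and Olfr503 (0.0707 to 0.347). For Zfp52, Slc39a8, Slc13a5 and Olfr503, at least 1 fit with the serum libraries alone, no filter on low values, no mean-variance trend, voom on the recovered reads, 1 block for both media, libraries centred on their median or quantile normalisation also ended the call.

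Mouse repeats fall into long terminal repeat (LTR) retroelements, L1 and SINE elements, DNA transposons, satellites and structural RNA copies. Of the LTR elements, IAP, ETn/MusD and MMERVK10C are class II retroviruses, MMERGLN, RLTR1B, RLTR4 (murine leukaemia virus) and MMVL30 are class I, and MERVL, known for its expression in 2-cell embryos, is class III. An internal part carries the viral genes or their remains, and an LTR at either end carries the promoter. Counts are per family, so copies of 1 family are not told apart, and families of similar sequence may share reads.

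Of 1097 repeat families tested 72 passed (6.56%), 68 higher after knockdown (6.2%) and 4 lower (0.365%). Without the block 37 passed (3.37%), 36 higher (3.28%) and 1 lower (0.0912%). The limma p-values of repeats rest mostly on a spread shared over families (prior 192.39 against 4 residual degrees of freedom). Very small values therefore do not measure the spread of the single family. All 72 moved the same way in the 3 pairs, which 30.1% of all families did. Groups did not overlap for 65 of the 68, against 14.6% of all families, and 38 rises and 1 fall passed without each pair in turn. All 9 MMERVK10C families rose, 14 of 16 IAP, 5 of 5 ETn/MusD, 9 of 9 RLTR44 to RLTR46 and 13 of 32 class I families. Other rodent LTR families had 12 of 120, and MaLR, ancient LTR and MER or DNA transposon families had 1 each of 94, 91 and 209. The 1 of the last list was MER66-int, by its name the internal part of an LTR element and not a DNA transposon. No family passed among 7 of MERVL and MT2, 35 mouse and rodent L1, 75 ancient L1, 38 SINE and 5 satellite families. The list medians were 2.32 for MMERVK10C, 1.54 for RLTR44 to RLTR46, 1.37 for IAP, 1.04 for ETn/MusD and 0.83 for class I, against −0.03 for all tested families. Repeat lists too were chosen with earlier results of these data known.

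**Figure D4:**
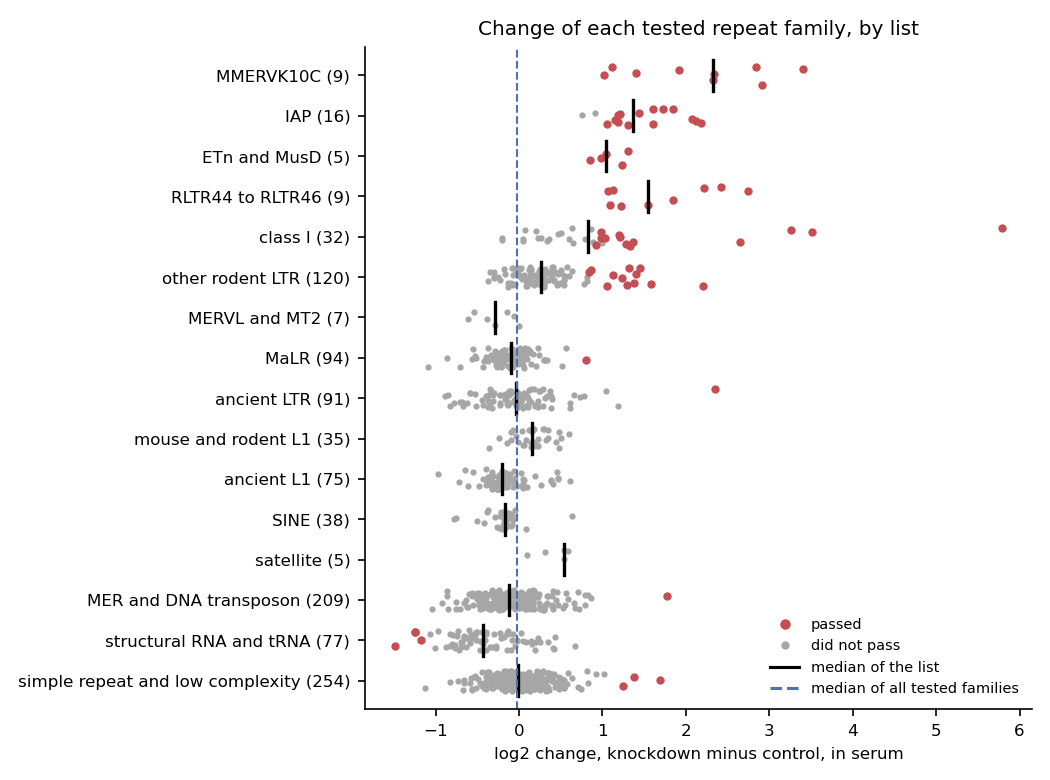
Log2 change in serum (horizontal axis) of each tested repeat family in 16 lists, with the number tested in brackets; red points passed, grey points did not, black bars are list medians and the dashed line is the median of all tested families. MMERVK10C sits farthest to the right at a median of 2.32, while MERVL and MT2 (−0.29), SINE (−0.17) and structural RNA and tRNA (−0.44) sit left of 0.

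In the MMERVK10C group the internal part MMERVK10C-int had 4213, 4576 and 3875 normalised reads in control libraries and 62234, 51784 and 27668 in knockdown libraries (3.40, SE 0.27, adjusted p = 4.35e-24) and its LTR RLTR10C 825, 903 and 751 in control libraries and 7805, 6732 and 4858 in knockdown libraries (2.91, SE 0.27, adjusted p = 1.34e-18). RLTR10A had 251, 324 and 485 normalised reads in control libraries and 1353, 2207 and 1944 in knockdown libraries (2.32, SE 0.28, adjusted p = 4.55e-12) and RLTR10B 65.5, 67.6 and 65.6 in control libraries and 415, 500.5 and 359 in knockdown libraries (2.34, SE 0.36, adjusted p = 3.05e-08). The groups were far apart in each. RLTR10B2 rose by 2.84. RLTR10-int, with 1086, 992 and 1317 normalised reads in control libraries and 4862, 5350 and 3098 in knockdown libraries, rose by 1.92, more than its LTR RLTR10 at 1.01, and internal was above LTR in all 3 pairs. Among the 9 families the call was lost without the block for RLTR10D (0.103) and RLTR10 (0.0871), without pair 1 for RLTR10 (0.114), without pair 2 for RLTR10D (0.084) and RLTR10 (0.295), and without pair 3 for RLTR10D (0.112). RLTR10D and RLTR10 also lost the call with no mean-variance trend.

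The IAP families split by replicate. IAPEz-int, the most abundant, had 14206, 13448 and 12524 normalised reads in control libraries and 38122, 39602 and 72959 in knockdown libraries (1.84, SE 0.28, adjusted p = 4.97e-08), and IAPEy-int had 179, 179 and 252 normalised reads in control libraries and 577, 737 and 1992 in knockdown libraries (2.12, SE 0.28, adjusted p = 1.44e-10). IAPLTR1_Mm had 1126, 999 and 1078 normalised reads in control libraries and 2364, 2516 and 4179 in knockdown libraries (1.43, SE 0.26, adjusted p = 6.21e-06). In these the third knockdown library was the highest. IAPLTR3-int had 250, 177 and 203 normalised reads in control libraries and 1494, 1589 and 444 in knockdown libraries (2.18, SE 0.32, adjusted p = 1.02e-08), and IAPLTR4_I had 78.6, 73.3 and 63.6 normalised reads in control libraries and 476, 493 and 214 in knockdown libraries (2.08, SE 0.37, adjusted p = 4.49e-06). IAPEY3-int had 1263, 1014 and 1257 normalised reads in control libraries and 4673, 4533 and 2228 in knockdown libraries (1.61, SE 0.27, adjusted p = 5.8e-07). In these the third knockdown library was the lowest, though still above every control. IAP-d-int rose by 1.73 and IAPLTR2_Mm by 1.604. The families that missed the threshold were IAPLTR4 (0.91, SE 0.33, adjusted p = 0.0928) and IAPEY3_LTR (0.75, SE 0.33, adjusted p = 0.256). All 16 families were higher in all 3 pairs, which 17.7% of all tested families were, and for 15 the groups did not overlap. The internal part had the larger change than its own LTR for IAPEz-int against IAPLTR1_Mm, IAPLTR1a_Mm and IAPLTR2_Mm, for IAPLTR4_I against IAPLTR4 (0.91) and for IAPEy-int against IAPEY_LTR (1.21), each in all 3 pairs. For IAPLTR3-int against IAPLTR3 (1.19) and IAPEY3-int against IAPEY3_LTR the order held in pairs 1 and 2 and was reversed in pair 3. These differences were not tested. Among the 14 passing IAP families the call did not hold without the block for IAPEy-int, IAPLTR2a, IAPEY_LTR, IAPLTR3, IAPLTR2b and IAPEY2_LTR (0.0744 to 0.38), without pair 1 for IAPLTR1a_Mm, IAPLTR3 and IAPEY2_LTR (0.0839 to 0.209), without pair 2 for IAPLTR3, IAPLTR2b and IAPEY2_LTR (0.203 to 0.355), and without pair 3 for IAPEY_LTR, IAPLTR3, IAPLTR2b and IAPEY2_LTR (0.108 to 0.237). IAPEY_LTR, IAPLTR1a_Mm, IAPLTR3, IAPLTR2b and IAPEY2_LTR also lost the call with no mean-variance trend, libraries centred on their median, quantile normalisation, voom on the recovered reads, no filter on low values or size factors of the gene table, in 1 or more of these fits each.

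ETn and MusD elements were the most abundant retroviral families that rose, and their folds were small. MMETn-int had 191719, 159201 and 97248 normalised reads in control libraries and 363796, 319883 and 195179 in knockdown libraries, 1.96-fold higher (log2 change 0.98, SE 0.33, adjusted p = 0.0456). ETnERV2-int had 52296, 42933 and 24992 normalised reads in control libraries and 113995, 108377 and 69210 in knockdown libraries, 2.43-fold higher (log2 change 1.31, SE 0.29, adjusted p = 0.00031). Pair 3 was lowest in both groups for both and pair 1 highest, and the groups did not overlap although the lowest knockdown and highest control libraries of MMETn-int were close. ETnERV3-int (1.24, SE 0.26, adjusted p = 0.000112), the LTR RLTRETN_Mm (1.04, SE 0.27, adjusted p = 0.00404) and ETnERV-int (0.85, SE 0.26, adjusted p = 0.0263) rose too, the last with overlapping groups. The adjusted p did not stay under 0.05 without the block for MMETn-int, ETnERV2-int, ETnERV3-int, RLTRETN_Mm and ETnERV-int (0.152 to 0.861), without pair 1 for MMETn-int, RLTRETN_Mm and ETnERV-int (0.0874 to 0.416), without pair 2 for MMETn-int, RLTRETN_Mm and ETnERV-int (0.0547 to 0.261), and without pair 3 for MMETn-int, RLTRETN_Mm and ETnERV-int (0.0922 to 0.267). For MMETn-int, RLTRETN_Mm and ETnERV-int, at least 1 fit with 1 block for both media, no filter on low values, no mean-variance trend, quantile normalisation or size factors of the gene table also ended the call.

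Class I families changed by very different amounts. MMERGLN-int, a gammaretrovirus, had 1293, 1320 and 1330 normalised reads in control libraries and 73200, 159306 and 34389 in knockdown libraries, 67.7-fold higher (log2 change 5.79, SE 0.28, adjusted p = 1.01e-48). Its changes in pairs 1 to 3 were 5.80, 6.89 and 4.67, and its limma adjusted p without the block was 1.47e-06. RLTR1B-int had 5690, 4341 and 4173 normalised reads in control libraries and 23203, 35910 and 31243 in knockdown libraries (2.65, SE 0.28, adjusted p = 7.29e-16), less than its LTR RLTR1B (3.26, SE 0.26, adjusted p = 1.98e-24) in all 3 pairs. LTR45C, barely read in the controls, rose by 3.51 to 257, 97.7 and 70 normalised reads. The spread between knockdown libraries was wide for MMERGLN-int, but the groups did not overlap for any of the 13 passing families. RLTR4_MM-int, the murine leukaemia virus group, had 981, 759 and 725 normalised reads in control libraries and 3215, 2856 and 1066 in knockdown libraries (1.37, SE 0.29, adjusted p = 0.00014), against 0.65 for its LTR, which did not pass. MuRRS-int rose by 1.33 and RLTR6-int by 0.98, while MMVL30-int, the most abundant member that did not pass, stood at 0.05 (SE 0.26). Of the 13 passing families 11 had their largest change in pair 2, with median changes of 1.37, 1.88 and 0.75 in pairs 1, 2 and 3. Among the 13 the call was not held without the block for RLTR4_MM-int, MuRRS-int, LTRIS4, RLTR6-int, MURVY-LTR and RLTR6_Mm (0.103 to 0.273), without pair 1 for MuRRS-int, LTRIS4, RLTR1, LTRIS2, RLTR6-int, MURVY-LTR and RLTR6_Mm (0.0519 to 0.476), without pair 2 for RLTR4_MM-int, MuRRS-int, LTRIS4, RLTR1, LTRIS2, RLTR6-int, MURVY-LTR and RLTR6_Mm (0.0556 to 0.543), and without pair 3 for MURVY-LTR (0.0691). Other settings that ended a call were no mean-variance trend, libraries centred on their median, quantile normalisation, voom on the recovered reads, 1 block for both media, no filter on low values and size factors of the gene table, for 1 or more of RLTR4_MM-int, MuRRS-int, MuRRS4-int, LTRIS4, RLTR1, LTRIS2, RLTR6-int, MURVY-LTR and RLTR6_Mm.

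The RLTR44 to RLTR46 families, named for their LTRs, all rose. RLTR44B had 52.4, 66.7 and 73.7 normalised reads in control libraries and 313, 539.5 and 968 in knockdown libraries (2.75, SE 0.34, adjusted p = 1.49e-11), and RLTR44-int had 218, 218 and 364 normalised reads in control libraries and 772, 1836 and 2281 in knockdown libraries (2.42, SE 0.29, adjusted p = 4.26e-12). RLTR45-int, the most abundant, had 2901, 2824 and 2622 normalised reads in control libraries and 7169, 7646 and 5020 in knockdown libraries (1.22, SE 0.26, adjusted p = 0.000173). Groups did not overlap for these 3. RLTR44A rose by 2.21, RLTR44D by 1.85 and RLTR46 by 1.54. Of the 9 families the call did not stand without the block for RLTR45-int, RLTR44C, RLTR45 and RLTR44E (0.0852 to 0.229), without pair 1 for RLTR45 (0.235), without pair 2 for RLTR44C (0.429) and RLTR44E (0.478), and without pair 3 for RLTR44C (0.0667) and RLTR44E (0.398). RLTR45-int, RLTR44C, RLTR45 and RLTR44E also lost the call with no mean-variance trend, 1 block for both media, no filter on low values, libraries centred on their median, quantile normalisation, voom on the recovered reads or size factors of the gene table, in 1 or more of these fits each.

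Rises outside those groups were scattered. RLTR27 had 152, 128 and 222 normalised reads in control libraries and 919, 769 and 821 in knockdown libraries (2.21, SE 0.31, adjusted p = 1.21e-09). RLTR13D6 had 1350, 1385 and 797 normalised reads in control libraries and 3306, 3789 and 3343 in knockdown libraries (1.58, SE 0.26, adjusted p = 3.68e-07), and RMER16-int had 3689, 3405 and 2672 normalised reads in control libraries and 8584, 10360 and 7139 in knockdown libraries (1.41, SE 0.26, adjusted p = 7.67e-06). No overlap was seen in the 3 families. RLTR9E had 3680, 4642 and 2093 normalised reads in control libraries and 7978, 9196 and 7731 in knockdown libraries (1.32, SE 0.26, adjusted p = 2.8e-05), RLTR9C rose by 1.45 and BGLII by 1.38. Other rodent LTR families had a median of 0.26 with 96 of 120 above 0, and RMER15, the most abundant that did not pass, stood at 0.22 (SE 0.26). The ancient LTR81B had 5.95, 4.76 and 9.08 normalised reads in control libraries and 122, 125 and 66.1 in knockdown libraries (2.35, SE 0.42, adjusted p = 4.5e-06). ORR1A0, a MaLR family, had 4332, 4215 and 2067 normalised reads in control libraries and 6902, 6222 and 4692 in knockdown libraries (0.80, SE 0.26, adjusted p = 0.035), and MER66-int had 0, 9.52 and 7.06 normalised reads in control libraries and 64.9, 84.7 and 15.8 in knockdown libraries (1.78, SE 0.45, adjusted p = 0.00247). Simple repeats held 3 rises of 254, (TAGTG)n at 1.69, (CCCGAA)n at 1.38 and (GTCTG)n at 1.24. The simple repeats did not pass without the block (0.116 to 0.328), without pair 1 (0.078 to 0.691) or without pair 2 (0.0765 to 0.138), and without pair 3 (CCCGAA)n and (GTCTG)n did not pass either (0.112 each). The adjusted p exceeded the threshold without the block for RLTR9F, RLTR31B_Mm, RLTR16, RLTR9A, ORR1A0 and MER66-int (0.0811 to 0.328), without pair 1 for RLTR9F, RLTR31B_Mm, RLTR16, RLTR9A, ORR1A0 and MER66-int (0.136 to 0.512), without pair 2 for RLTR9F, RLTR31B_Mm, RLTR16, RLTR9A, ORR1A0 and MER66-int (0.0547 to 0.188), and without pair 3 for RLTR9F, RLTR31B_Mm, RLTR16, RLTR9A and ORR1A0 (0.116 to 0.522). For RLTR9F, RLTR31B_Mm, RLTR16, RLTR9A, ORR1A0 and MER66-int, at least 1 fit with 1 block for both media, no filter on low values, no mean-variance trend, libraries centred on their median, quantile normalisation, size factors of the gene table or voom on the recovered reads also ended the call.

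Counted in reads, the order of the retroviral lists was another one. ETn and MusD gained most, from 227012 ± 74041 summed normalised reads to 463337 ± 130502 (SD, n = 3), 2.04-fold, with pair folds of 1.93, 2.11 and 2.16. Class I families went from 21591 ± 2271 to 156570 ± 75496, 7.25-fold, and MMERVK10C from 8067 ± 295 to 64805 ± 20293, 8.03-fold. IAP went from 19794 ± 709 to 70187 ± 21692, 3.55-fold, and RLTR44 to RLTR46 from 4387 ± 57.5 to 12383 ± 1536, 2.82-fold. As a share of repeat reads without structural RNA, ETn and MusD took 6.23, 5.61 and 3.25% in control libraries and 11.5, 9.52 and 7.95% in knockdown libraries. IAP took 0.440, 0.444 and 0.434% in control libraries and 1.14, 1.11 and 2.40% in knockdown libraries. Every knockdown library lay above every control in both. No set of these summed values was tested.

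**Figure D5:**
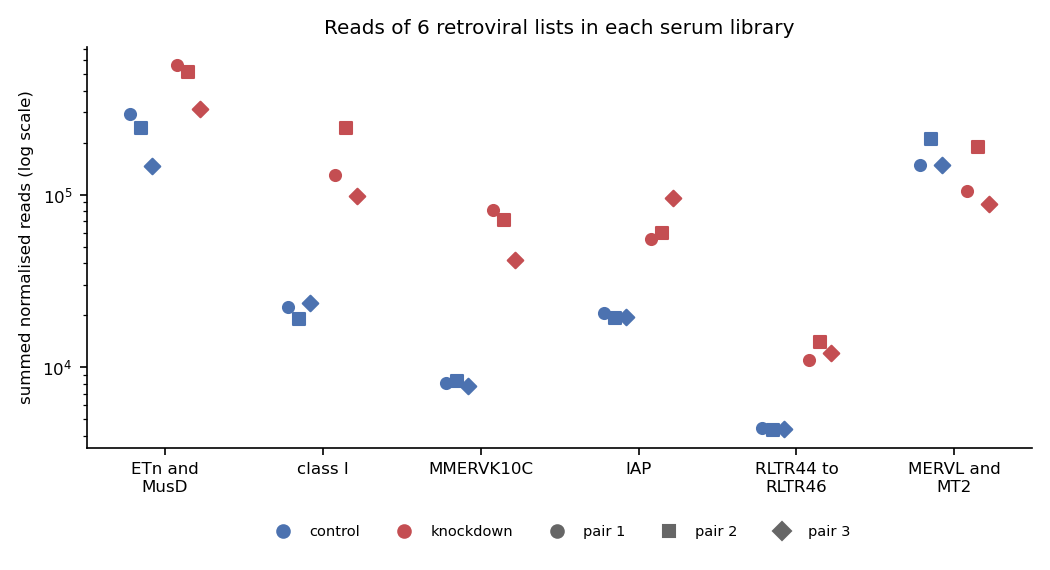
Summed normalised reads (vertical axis, log scale) of 6 retroviral lists in each serum library, blue for control and red for knockdown, with the marker shape for the pair. ETn and MusD stand highest and 2.04-fold apart between groups, class I and MMERVK10C show the widest gaps at 7.25-fold and 8.03-fold, and MERVL and MT2 overlap.

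No MERVL family passed. MERVL-int had 91524, 134110 and 93601 normalised reads in control libraries and 59424, 120604 and 44884 in knockdown libraries (−0.61, SE 0.30, adjusted p = 0.362), and its LTR MT2_Mm stood at −0.54 (SE 0.27). The groups of MERVL-int overlapped, 6 of the 7 families of the list lay below 0, and none of the 21 tested genes of the 2-cell list passed. The most abundant L1 family, L1Md_T, had 319146, 224697 and 143915 normalised reads in control libraries and 505132, 462713 and 124936 in knockdown libraries (0.50, SE 0.34, adjusted p = 0.741), higher in pairs 1 and 2 and lower in pair 3. Of 35 mouse and rodent L1 families 27 lay above 0, with no call and a median of 0.16 whose sign changed between settings. The satellite MMSAT4 stood at 0.54 (SE 0.32). B2_Mm1a, an abundant SINE, had 305167, 561350 and 442509 normalised reads in control libraries and 153129, 326646 and 316529 in knockdown libraries (−0.75, SE 0.36, adjusted p = 0.343). SINE families had a median of −0.17 with 2 of 38 above 0, and took 38.8, 43.3 and 47.9% of repeat reads without structural RNA in the controls and 26.7, 28.6 and 39.4% in knockdown libraries.

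The 4 repeat families that fell were all tRNA annotations. tRNA-Lys-AAA had 214, 249.5 and 225 normalised reads in control libraries and 54.5, 77.2 and 75 in knockdown libraries (−1.49, SE 0.36, adjusted p = 0.00116), and tRNA-Gln-CAG had 1001, 1485 and 1042 normalised reads in control libraries and 501, 451 and 469 in knockdown libraries (−1.25, SE 0.27, adjusted p = 0.00026). tRNA-Glu-GAA had 926, 998 and 468 normalised reads in control libraries and 336, 464 and 181 in knockdown libraries (−1.25, SE 0.29, adjusted p = 0.000945). For tRNA-Ile-ATT the values were 688, 726 and 1021 normalised reads in control libraries and 268, 380.5 and 391 in knockdown libraries (−1.17, SE 0.29, adjusted p = 0.00227), and the groups did not overlap for any of the 4. Structural RNA and tRNA families as a list had a median of −0.44 over 77 families, with 33 lower in all 3 pairs against 12.4% of all families. 7SK, a small nuclear RNA that binds a transcription elongation factor, had 573625, 737994 and 2150630 normalised reads in control libraries and 406930, 443775 and 1337760 in knockdown libraries and did not pass. The 7SK values and the share of structural RNA, which counts both 7SK and the tRNA families, were highest in pair 3. For 7SK, the share and the 4 tRNA families each knockdown library lay below its own control. Across pairs the tRNA families differed. Only tRNA-Ile-ATT was highest in pair 3 in both groups, and tRNA-Glu-GAA was lowest there. The part of the structural RNA share in these falls was not tested. The tRNA calls were lost without the block for tRNA-Gln-CAG, tRNA-Glu-GAA and tRNA-Ile-ATT (0.283 to 0.592), without pair 1 for tRNA-Lys-AAA, tRNA-Glu-GAA and tRNA-Ile-ATT (0.0679 to 0.112), and without pair 3 for tRNA-Ile-ATT (0.0667). Other settings that ended a call were 1 block for both media, voom on the recovered reads, no mean-variance trend, libraries centred on their median and quantile normalisation, for 1 or more of tRNA-Gln-CAG, tRNA-Glu-GAA and tRNA-Ile-ATT.

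The same hairpin in 2i, against its own controls, gave 391 rises (2.7%) and 34 falls (0.235%) among genes. Of the serum rises 117 also rose in 2i, 66.1% of the serum and 29.9% of the 2i rises, and 171 of 177 had the same sign there. Of the falls 4 were shared, Setdb1, Kbtbd11, Krt42 and Nrp2, 11.8% of either list, with the same sign for 30 of 34. No gene that passed in serum had a change that differed between the media at an adjusted p under 0.05, and 2 of all tested genes did (0.0138%). Plod2, for example, changed by 1.98 in serum and 0.65 in 2i (adjusted p = 0.235), with an adjusted p = 0.353 for the difference. Of the 68 repeat rises 59 also rose in 2i, 86.8% of the serum and 36.9% of the 160 2i rises (14.6% of families). None of the 4 falls was among the 8 families that fell in 2i (0.729%). For 7 of the 68 the change was larger in 2i by the test of the difference, which 21 of all families passed (1.91%). The largest such difference was that of IAPLTR1_Mm at 1.43 in serum and 3.81 in 2i.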

How the data were processed

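Gene and repeat expression was measured by RNA sequencing of ribosomal-RNA-depleted, directional libraries. The deposited tables hold log2-scale values from a variance-stabilising transformation made by the authors, 1 column per library. Per the submitters' processing notes the tools were Trim Galore 0.3.3, TopHat2 2.0.9 and DESeq2, with the genome build mm9; the sources used here do not name the counting tool, its use of strand or the annotation. The transformation was inverted for each table, which gave whole reads within 0.01 of a read for 100% of values, and so the depth and size factors of each library.

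A feature entered the test where its mean exceeded the floor of its table by 0.5 or more, and limma 3.58.1 (R 4.3.3) was used with empirical Bayes variances and a mean-variance trend. The model held all 12 libraries, a knockdown term per medium and the replicate number within medium as a block, which leaves 4 residual degrees of freedom (prior 10.03 for genes and 192.39 for repeats). The p-values are two-sided and Benjamini-Hochberg adjusted over a table, with a threshold of 0.05. The labels number the replicates but do not say what a number shares. Deviations of same-numbered serum libraries correlated at 0.58, 0.23 and 0.51 for genes, and at 0.21, 0.04 and 0.24 for repeats, so for repeats the pairing has less support in pair 2. Alternatives were fits without the block, with 1 block for both media, with serum libraries alone, without a filter or with a strict filter of 1.5, without the trend, after centring or quantile normalisation, with voom on the recovered reads, with the size factors of the gene table for repeats, and without each pair. Folds come from mean normalised reads, with a floor of 3 reads over the group where the controls had none, which covers counting error only. The procedure was tested on simulated data.

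The comparison, gene lists and repeat lists were chosen with earlier results of these data known. Named genes are Setdb1, the rises ranked 11 to 30, the 20 largest falls, the 20 largest rises with at least 100 mean control reads, and in each list up to 8 passing genes or 6 passing families with the most abundant that did not pass. Every repeat family that fell is named, and so are internal parts beside their LTRs. Some genes that these rules name are not reported here. Promoters came from RefSeq tables of GRCm38.p6, used for sequence and gene order only.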

Additional observations from a re-analysis of the deposited data

Results flagged for a closer look

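Changes that differed between the media are listed here with their values as 2i minus serum, since each passed the test of the difference in limma with the block (adjusted p under 0.05). Each medium had its own controls. Over all repeat families the median of this difference was 0.31, and 0.014 after the libraries were centred on their median, so the repeat values below include that shift.

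Among genes Gm5662 (4.34, adjusted p = 0.0202) and Gm2016 (3.99, adjusted p = 0.0202) changed by −0.55 and −0.46 in serum, where neither passed, and by 3.79 and 3.53 in 2i. MERVL-int differed by 3.05 (adjusted p = 8.8e-09), from −0.61 in serum to 2.44 in 2i, and its LTR MT2_Mm by 2.13 (adjusted p = 1.33e-05), from −0.54 to 1.596. MMVL30-int differed by 1.95 (adjusted p = 6.01e-05), from 0.05 to 1.99.

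IAP families rose in both media and by more in 2i. The difference was 2.38 for IAPLTR1_Mm (adjusted p = 2.84e-07), 2.28 for IAPEz-int (adjusted p = 9.69e-06), 1.94 for IAPEy-int (adjusted p = 0.000221), 1.58 for IAPLTR2a (adjusted p = 0.00774), 1.44 for IAPLTR1a_Mm (adjusted p = 0.0391) and 1.39 for IAPLTR2_Mm (adjusted p = 0.0159). ETnERV3-int differed by 1.34 (adjusted p = 0.0206), from 1.24 to 2.58. Without the block IAPLTR1_Mm (adjusted p = 0.011) and IAPEz-int (adjusted p = 0.0488) passed and no other did. None of the repeat differences named here passed without the mean-variance trend or after centring.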

How the results depend on the processing

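Of the 211 genes and 72 repeat families that passed, none changed sign under any alternative that tested it. Setdb1 in serum passed in all of them, with changes from −2.57 to −2.14. Without the replicate block, which treats same-numbered libraries as pairs, 94 genes and 37 repeat families passed. Without 1 pair 67 to 110 genes and 45 to 59 repeat families passed, with fewer libraries in each fit. Without the mean-variance trend 41 repeat families passed. The 2 genes whose change differed between the media became 0 without the block, with 1 block for both media, without a filter and without the trend (404, 882, 1375 and 1111 genes at an unadjusted p under 0.05 in limma), and 0 to 4 without 1 pair (598 and 675 at an unadjusted p under 0.05 where none passed, without pair 1 and pair 2). Voom kept 2 of them as a count. The 21 repeat families that differed, all higher in 2i, became 2 without the block, 6 with 1 block for both media, 9 with voom (2 higher, 7 lower), 319 with the size factors of the gene table and 11 to 17 without 1 pair. After quantile normalisation they were 16, 3 higher and 13 lower. None passed without the trend or after centring (134 and 150 at an unadjusted p under 0.05, with 9 by voom). Apart from fewer libraries without a pair, the cause of these changes was not tested. Depth limits features with few control reads: 20 rises had no control read, so their folds are lower bounds.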
